A study of Rattus norvegicus with 30 samples.

Results

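The genes described are 10 enzymes and receptors of the eicosanoid pathways, namely *Ptgs1*, *Ptgs2*, *Ptges*, *Ptgds*, *Hpgd*, *Ptger1*, *Ptger4*, *Alox5*, *Alox15b* and *Ephx2*. They were taken by gene symbol from the 32545 genes of the deposited count table, and each symbol matched 1 row. The counts come from polyA mRNAseq of the kidneys of normal male Sprague-Dawley (SD) rats, an outbred strain in which high salt intake raises blood pressure little. Rats ate an AIN-76A diet with 0.4% NaCl (LS), or had been switched to 4.0% NaCl for 14 d (HS14) or 21 d (HS21), and the cortex (Cx) and outer medulla (OM) of the right kidney were sampled from 5 rats per diet group. This gives 6 groups and 30 libraries, and no group carried a mutation, a drug or a transgene. The labels give no age for these rats. The study asked how normal kidneys respond to salt, so each HS group was set against LS within a tissue, and the tissues were compared on LS.

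Eicosanoids are signalling lipids made from arachidonic acid, which phospholipases release from cell membranes. Cyclooxygenases turn it into prostaglandin H, from which synthases form prostaglandins E, D, F and I and thromboxane, lipoxygenases turn it into hydroperoxy acids and leukotrienes, and cytochrome P450 enzymes turn it into epoxides or hydroxy acids. In the kidney these lipids act close to where they are made, on vascular tone, renin release and the reabsorption of salt and water.

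The libraries held 5408126 to 21842843 counts on genes. OM HS14 replicate 10 had the fewest, and the next lowest had 12748841. The paper's mapping results also give OM HS14 replicate 10 the lowest share of exonic bases and of spliced reads of all libraries. Its share of intronic bases was the highest. The summed level of 10 proximal tubule markers was 27795.7 to 32293.5 CPM (counts scaled to the effective library size) in Cx LS and 16106 to 19899.1 in Cx HS21, and 9 of the 10 markers were lowered at HS21. All 8 general leukocyte markers were raised there, with a summed level of 135 to 194 CPM on LS and 264 to 795 CPM at HS21. Of 6 collecting duct markers, 5 were also raised. Over all genes tested in that comparison, 18.9% were raised and 20.5% lowered. In the OM, thick ascending limb markers summed to 10512.1 to 22441.4 CPM, against 1694.04 to 3430.52 CPM in the Cx. A pair of OM LS libraries stood apart from the others: replicate 2 had the highest proximal tubule sum of the OM (20772.5 CPM) and the lowest collecting duct sum (601 CPM), and replicate 5 had the lowest proximal tubule sum (1531.01 CPM) and the highest collecting duct sum (2605.41 CPM). *Slc14a2* and *Aqp4*, listed here as inner medulla markers, summed to 27.0 CPM in replicate 2 and 782 CPM in replicate 5. In the rest of OM LS they summed to 222 to 328 CPM. *Aqp4* was also counted in Cx LS (9.86 to 14.7 CPM). *Slc14a2* was counted in all OM libraries at HS14 (53.9 to 134 CPM) and HS21 (41.9 to 152 CPM). These sums therefore do not by themselves show inner medulla in a library. Distal convoluted tubule markers summed to 21.6 to 378 CPM in OM LS and 1027.16 to 1250.25 CPM in Cx LS. How far the dissection differed between libraries was not tested. Among the Cx HS14 libraries, replicate 10 had the lowest proximal tubule sum (20311.1 CPM, next lowest 26072.1 CPM). It also had the highest collecting duct sum (1298.74 CPM) and thick ascending limb sum (3378.84 CPM) of that group. In bulk tissue, fewer cells of a type and less RNA per cell cannot be told apart.

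Because CPM depends on the length of a transcript, genes were ranked by CPM per kilobase (kb), the CPM divided by the gene length in the deposited table. *Ptgds* was the most abundant of the 10 in the Cx on LS, at 122 ± 36.0 CPM per kb (mean ± SD of 5 rats, as throughout). *Ptges*, *Ptger1* and *Hpgd* followed at 11.9 ± 1.005, 11.8 ± 1.22 and 11.2 ± 2.14 CPM per kb, which lay within each other's spread. *Ephx2* stood at 6.50 ± 1.48 and *Ptger4* at 6.26 ± 0.916 CPM per kb. Both cyclooxygenase genes were lower, with *Ptgs2* at 2.53 ± 1.32 and *Ptgs1* at 2.504 ± 0.410 CPM per kb. The lipoxygenase genes were the least abundant, *Alox15b* at 0.114 ± 0.116 and *Alox5* at 0.0860 ± 0.0598 CPM per kb. In the OM on LS the order was different, with *Ptgds* at 23.2 ± 5.24, *Ptger1* at 22.2 ± 11.8, *Hpgd* at 15.5 ± 8.80 and *Ptgs1* at 13.4 ± 7.11 CPM per kb. All values that follow are CPM or log2 ratios.

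**Figure D1:**
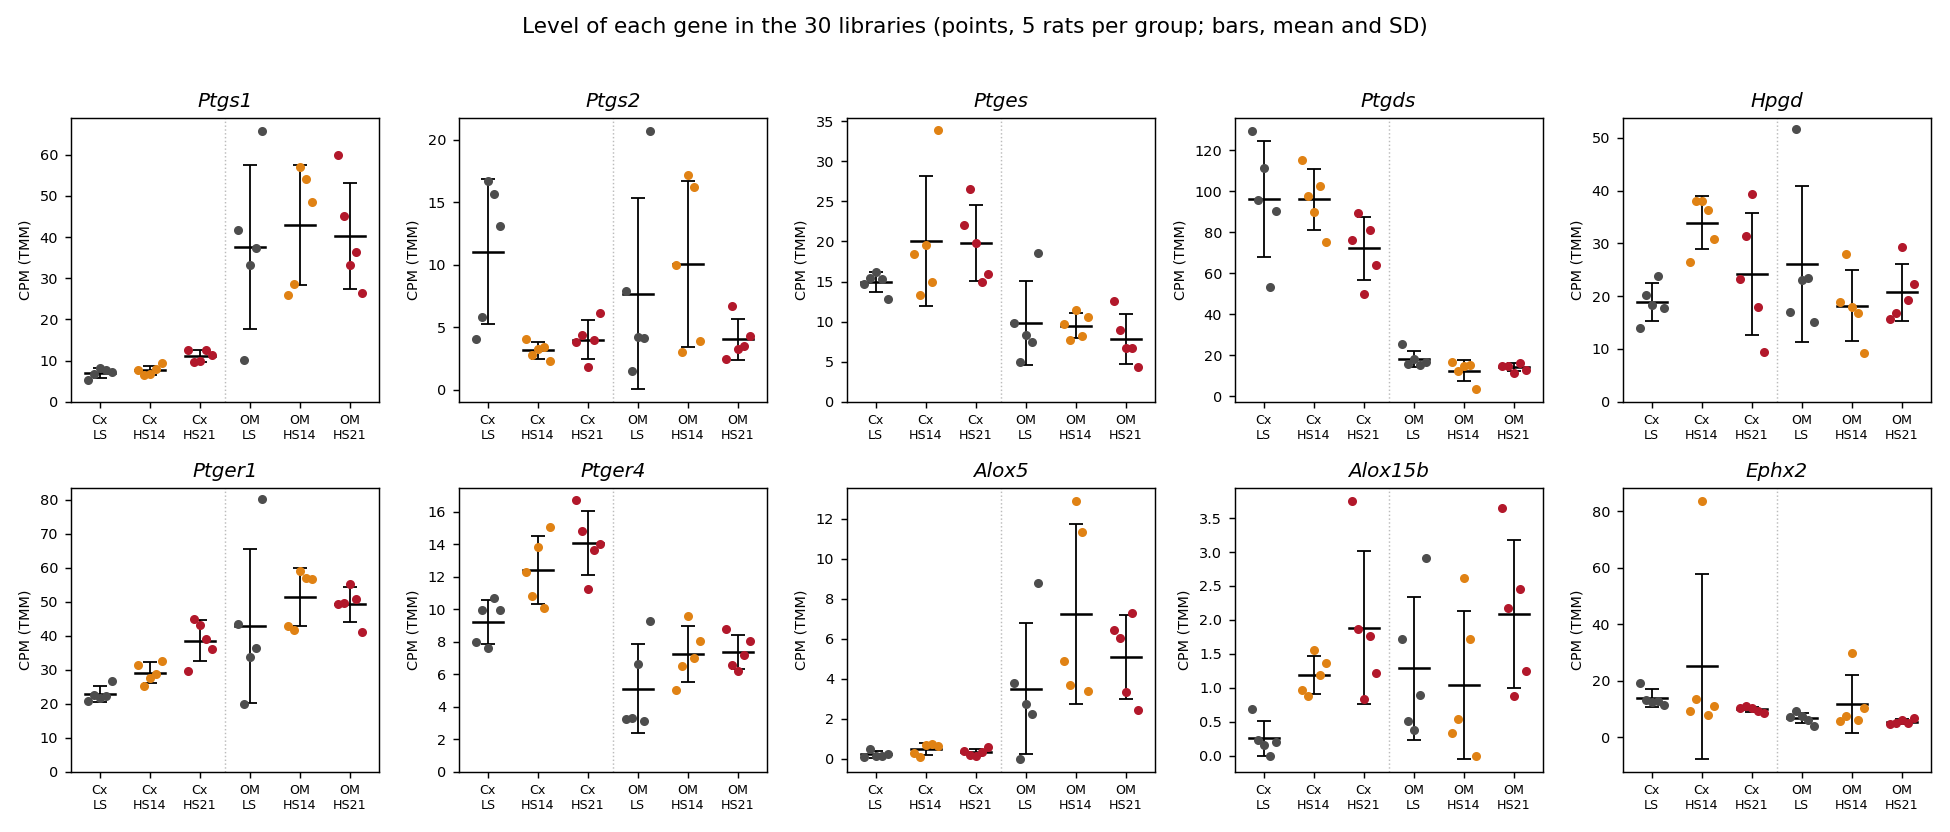
Levels of the 10 genes in every library, in CPM scaled by TMM, with the 6 groups on the x axis. Points are rats, long bars are means and whiskers are SD; *Ptgs2* in Cx falls from a mean of 11.1 on LS to 3.15 at HS14 and 4.02 at HS21, and OM LS points are widely spread for most genes.

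In the Cx at HS14, edgeR's quasi-likelihood test with Benjamini-Hochberg adjustment over all 14181 genes tested called 2 of 9 tested members raised (*Hpgd* and *Alox15b*) and 1 lowered (*Ptgs2*), where 1.14% and 1.18% of all genes were raised and lowered. At HS21 it called 5 of 9 raised (*Ptgs1*, *Ptges*, *Ptger1*, *Ptger4* and *Alox15b*) and 2 lowered (*Ptgs2* and *Ephx2*), against 18.9% and 20.5% of the 14299 genes tested. *Ptgs2* and *Alox15b* were thus called at both times. Of the calls over all genes at HS21, 47.9% were raised, and 72.7% when libraries were scaled by total counts, which placed the median gene at 0.13 on the log2 scale instead of 0.00. The median log2 ratio of the tested members was 0.42 at HS14 and 0.41 at HS21. *Alox5* was too low in the Cx to be tested. In the OM none of 10 members was called at HS14, where 0.00694% and 0% of genes were raised and lowered, and none at HS21, where 0.639% and 0.131% were. At an unadjusted *P* under 0.05 edgeR gave 0 members in the OM at HS14 and 1 at HS21, and DESeq2 and limma called none at either time.

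**Figure D2:**
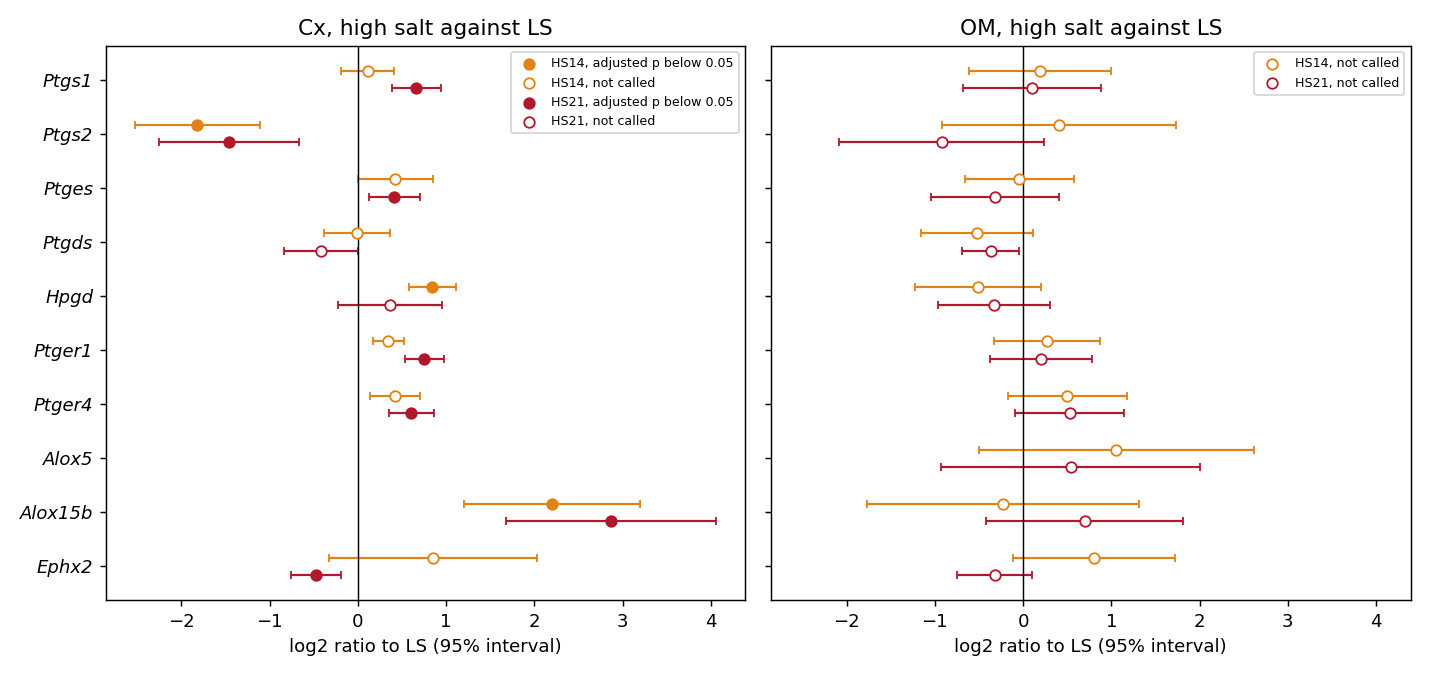
Log2 ratios of the 10 genes at HS14 and HS21 against LS, in Cx (left) and OM (right), with 95% intervals; filled points passed an adjusted *P* of 0.05. The Cx intervals of *Ptgs2* lie below 0 at both times and those of *Alox15b* above it, whereas 19 of the 20 OM intervals include 0, the exception being *Ptgds* at HS21. *Alox5* was not tested in Cx.

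The cyclooxygenases catalyse the committed step to all prostaglandins. *Ptgs1* encodes the constitutive form. *Ptgs2* encodes the inducible form, which in the renal Cx is known from the macula densa and the adjoining thick ascending limb, where salt intake regulates it. On the build Rnor_6.0 of the deposited table, *Ptgs1* (ENSRNOG00000007415) lies on chromosome 3, bases 15560712 to 15582344, forward strand, and *Ptgs2* (ENSRNOG00000002525) on chromosome 13, bases 67351087 to 67359335, forward strand. The 250 bases before each RefSeq start are given because mRNA of these related enzymes moved in opposite directions in the Cx. They are on the build GRCr8, at chr13:64713813-64714062 for *Ptgs2* and at chr3:39981169-39981418 for *Ptgs1*, both on the forward strand, and no position was converted between builds. Capitals mark matches to 5 motifs searched on both strands: the TATA box TATAAA, the cyclic AMP response element TGACGTCA and its core TGACGT, the E-box CANNTG, and the NF-kappa B motif GGGNNNNNCC.
Ptgs2: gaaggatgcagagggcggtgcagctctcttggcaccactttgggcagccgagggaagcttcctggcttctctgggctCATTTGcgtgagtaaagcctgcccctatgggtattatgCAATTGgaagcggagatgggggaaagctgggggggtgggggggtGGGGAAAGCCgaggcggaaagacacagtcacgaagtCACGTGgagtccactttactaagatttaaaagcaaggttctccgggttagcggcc
Ptgs1: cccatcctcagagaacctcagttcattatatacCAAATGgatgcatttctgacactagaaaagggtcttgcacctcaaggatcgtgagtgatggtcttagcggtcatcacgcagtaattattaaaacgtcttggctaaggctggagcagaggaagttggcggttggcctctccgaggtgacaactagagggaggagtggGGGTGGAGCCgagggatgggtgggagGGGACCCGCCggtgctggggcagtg
The *Ptgs2* window held 3 E-boxes, which begin 173, 135 and 55 bases before the start, and 1 match to the NF-kappa B motif at 91 bases. The *Ptgs1* window held 1 E-box at 217 bases and 2 such matches, at 51 and 25 bases. Matches of this kind are common: of 33469 rat promoters of the same length in the RefSeq table, 65.5% held an E-box and 42.3% that motif. TATAAA was in 12.9% of promoters, TGACGT in 6.95% and TGACGTCA in 1.59%, and none of them was in either window. Of the 10 members 8 were in the promoter table, and *Alox15b* and *Ephx2* were not analysed here for sequence.

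*Ptgs2* in the Cx stood at 4.05, 5.80, 16.7, 15.6 and 13.1 CPM in LS replicates 1 to 5. It stood at 4.04, 2.76, 3.23, 3.42 and 2.27 CPM in HS14 replicates 6 to 10, and at 3.81, 4.38, 1.80, 3.99 and 6.12 CPM in HS21 replicates 11 to 15. LS replicates 3, 4 and 5 were high, LS replicates 1 and 2 were low, and the highest HS14 rat lay just under the lowest LS rat. The log2 ratio to LS was -1.82 (SE 0.36, adjusted *P* = 0.0277) at HS14 and -1.46 (SE 0.41, adjusted *P* = 0.0139) at HS21, that is, levels of 0.284 and 0.364 times LS. At HS21 the groups overlapped, since replicates 12 and 15 exceeded LS replicate 1, and an exact permutation of the rats (two-sided) gave *P* = 0.0476. The HS14 call was lost when LS replicate 3, 4 or 5 or HS14 replicate 8 or 9 was left out (adjusted *P* of 0.0622 to 0.0848, log2 ratios of -1.85 to -1.62), and by limma on FPKM (adjusted *P* = 0.0956), and the HS21 call held without any one rat. Beside it, a pair of genes known from the macula densa was checked. *Pappa2*, a secreted protease, was lowered at HS21 (log2 ratio -1.24, adjusted *P* = 0.00932), and *Nos1*, the neuronal nitric oxide synthase, did not pass at either time (log2 ratios -0.61 and -0.45, adjusted *P* of 0.0761 and 0.0658). On LS, *Pappa2* was lower in the OM than in the Cx (log2 ratio -4.16, adjusted *P* = 0.00452). *Nos1* did not differ detectably between the tissues (-0.27, adjusted *P* = 0.439), so its level was not particular to the Cx. The summed level of both was 13.7 to 25.1 CPM on LS, 9.21 to 16.4 CPM at HS14 and 10.2 to 12.96 CPM at HS21, whereas 5 thick ascending limb markers went the other way at HS21, with 3 raised, 0 lowered, and sums of 1694.04 to 2244.54 CPM on LS and 2580.77 to 3430.52 CPM at HS21. The part of either in the *Ptgs2* change was not tested.

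*Ptgs1* in the Cx stood at 5.197, 6.82, 8.17, 7.79 and 7.13 CPM in the LS rats, at 7.61, 6.47, 6.66, 8.02 and 9.36 CPM at HS14 and at 12.5, 9.62, 9.81, 12.5 and 11.4 CPM at HS21. Every HS21 rat was above every rat of both other groups, which overlapped. The log2 ratio to LS was 0.66 (SE 0.14, adjusted *P* = 0.00295) at HS21, a 1.58-fold higher level, and 0.11 (SE 0.15, adjusted *P* = 0.771) at HS14. Set directly against HS14, HS21 was higher (log2 ratio 0.55, SE 0.14, adjusted *P* = 0.0225), a call that was lost without HS14 replicate 7 or 8 or HS21 replicate 11 or 14 (adjusted *P* of 0.0503 to 0.0577). Marker genes of the collecting duct, a segment in which *Ptgs1* is known to be expressed, summed to 670 to 744 CPM on LS. Their sums were 778 to 1298.74 CPM at HS14 and 975 to 1624.04 CPM at HS21. Other lists rose too at HS21, with 5 of 5 intercalated, 2 of 2 tested distal convoluted tubule, 3 of 4 podocyte and 3 of 5 thick ascending limb genes raised. In contrast, 9 of 10 proximal tubule and 1 of 2 macula densa genes were lowered. Over all genes, 18.9% were raised and 20.5% lowered. The part of any of these in the *Ptgs1* change was not tested.

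A ratio of both genes within a library does not depend on how libraries are scaled. Per kb, *Ptgs2* made up 33.3%, 35.3%, 56.8%, 56.3% and 54.1% of the cyclooxygenase mRNA in the Cx of LS replicates 1 to 5. At HS14 the share was 25.4%, 21.5%, 23.8%, 21.4% and 13.5%, and at HS21 it was 16.4%, 22.6%, 10.5%, 17.0% and 25.7%. All 10 HS rats were below all 5 LS rats, and the means were 47.1 ± 11.8%, 21.1 ± 4.58% and 18.4 ± 5.89%. In the OM *Ptgs2* made up 10.1 ± 4.05% on LS, 12.7 ± 6.59% at HS14 and 6.49 ± 2.76% at HS21, and the 3 groups overlapped.

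**Figure D3:**
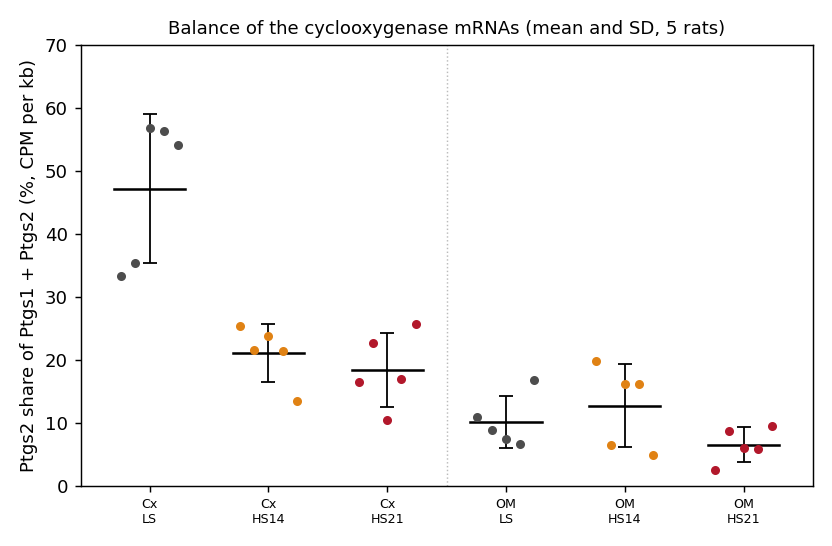
Share of *Ptgs2* in the summed level of *Ptgs1* and *Ptgs2* (y axis, percent, from CPM per kb) in the 6 groups (x axis), with points for rats, long bars for means and whiskers for SD. In Cx the LS rats lie between 33.3% and 56.8% and the HS rats between 10.5% and 25.7%; the OM groups overlap.

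The prostaglandin synthases *Ptges* and *Ptgds* form prostaglandin E and prostaglandin D from the cyclooxygenase product. *Ptges* (chromosome 3, 9727408 to 9738752, reverse strand) stood in the Cx at 14.8, 15.4, 16.2, 15.3 and 12.8 CPM on LS, at 18.4, 13.3, 19.6, 15.004 and 33.9 CPM at HS14 and at 22.0, 26.6, 19.8, 14.9 and 15.97 CPM at HS21. HS14 replicate 10, whose marker sums differed as given above, was far above its group, and HS21 replicates 14 and 15 lay among the LS rats. The part of tissue composition in the replicate 10 value was not tested. The log2 ratio of *Ptges* was 0.41 (SE 0.15, adjusted *P* = 0.0431) at HS21 and 0.42 (SE 0.22, adjusted *P* = 0.346) at HS14. At HS21 the exact permutation of the rats (two-sided) gave *P* = 0.0635. The HS21 call was lost when any one of the 5 LS rats or HS21 replicate 11, 12 or 13 was left out (adjusted *P* of 0.0563 to 0.101, log2 ratios of 0.30 to 0.44), by limma (adjusted *P* = 0.0701) and in the fit of all 15 libraries (adjusted *P* = 0.144).

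*Ptgds* (chromosome 3, 2686123 to 2689084, reverse strand), the lipocalin-type synthase, had a mean of 96.2 ± 28.3 CPM on LS, 96.2 ± 14.8 CPM at HS14 and 72.2 ± 15.5 CPM at HS21 in the Cx. The LS rats ranged from 53.4 to 129 CPM and spanned nearly all HS rats. The log2 ratio was -0.01 (SE 0.19) at HS14 and -0.42 (SE 0.21, adjusted *P* = 0.144) at HS21. Without LS replicate 4, the lowest LS rat, the HS21 ratio was -0.57 with an adjusted *P* of 0.0199. In the OM it stood at 18.3 ± 4.12, 12.6 ± 5.15 and 14.2 ± 1.93 CPM, and at HS21 its log2 ratio of -0.37 (SE 0.16) had an unadjusted *P* of 0.0485 and an adjusted *P* of 0.438 in edgeR.

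*Hpgd* (chromosome 16, 37457135 to 37495758, reverse strand) encodes the dehydrogenase that starts the inactivation of prostaglandins. In the Cx it stood at 13.9, 20.3, 18.3, 23.7 and 17.8 CPM on LS, at 26.5, 38.0, 38.1, 36.2 and 30.9 CPM at HS14 and at 23.2, 31.3, 39.3, 18.0 and 9.45 CPM at HS21. Every HS14 rat was above every LS rat, whereas the HS21 rats were spread from below the lowest LS rat to above the highest HS14 rat. The log2 ratio was 0.84 (SE 0.14, adjusted *P* = 0.0131) at HS14, a 1.80-fold higher level, and the call held when any one rat was left out but not when all 15 Cx libraries were fitted together (adjusted *P* = 0.131). At HS21 it was 0.36 (SE 0.30, adjusted *P* = 0.367), with a 95% interval of -0.23 to 0.96 that includes the HS14 ratio, and the difference between HS21 and HS14 did not pass (log2 ratio -0.48, SE 0.29, adjusted *P* = 0.275). Across the HS21 rats, replicate 15 had the lowest *Hpgd* and the highest leukocyte marker sum (795 CPM), and replicate 13 the highest *Hpgd* and the lowest leukocyte sum (264 CPM). This was not tested.

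The receptors *Ptger1* (EP1, which raises cell calcium) and *Ptger4* (EP4, which raises cyclic AMP) bind prostaglandin E. *Ptger1* (chromosome 19, 24800072 to 24803373, forward strand) stood in the Cx at 20.7, 22.6, 21.6, 22.3 and 26.8 CPM on LS, at 31.5, 25.1, 27.7, 28.8 and 32.7 CPM at HS14 and at 29.7, 44.9, 43.0, 39.0 and 36.0 CPM at HS21. All 5 HS21 rats were above all LS rats, and 4 of 5 HS14 rats were above the highest LS rat. The log2 ratio was 0.75 (SE 0.11, adjusted *P* = 0.000408) at HS21, 1.69-fold, the smallest adjusted *P* among the members in the Cx, and the call held without any one rat. At HS14 it was 0.35 (SE 0.09, adjusted *P* = 0.0716) and passed only when HS14 replicate 7 was left out (adjusted *P* = 0.0413) or in DESeq2 (adjusted *P* = 0.0234). HS21 was above HS14 (log2 ratio 0.41, SE 0.12, adjusted *P* = 0.0373). That call was lost when HS14 replicate 6, 7, 8 or 9 or HS21 replicate 12, 13, 14 or 15 was left out (adjusted *P* of 0.0514 to 0.0843) and by limma (adjusted *P* = 0.0558).

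*Ptger4* (chromosome 2, 54952821 to 54963448, reverse strand) stood in the Cx at 7.95, 9.96, 7.63, 10.7 and 9.95 CPM on LS, at 12.3, 10.8, 13.8, 10.1 and 15.1 CPM at HS14 and at 16.7, 14.8, 11.3, 13.7 and 14.0 CPM at HS21. No HS21 rat overlapped the LS rats, and 1 HS14 rat did. The log2 ratio was 0.61 (SE 0.13, adjusted *P* = 0.00351) at HS21, 1.52-fold, and 0.42 (SE 0.14, adjusted *P* = 0.149) at HS14. EP4 is also known from macrophages, whose 10 marker genes summed to 132 to 172 CPM on LS and 232 to 793 CPM at HS21, and their part in the *Ptger4* change was not tested. *Ptger1* made up 65.5 ± 2.84%, 64.4 ± 3.20% and 67.4 ± 6.21% of their summed level per kb in Cx LS, HS14 and HS21, and 83.5% to 85.9% in the OM group means.

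Lipoxygenases add oxygen to arachidonic acid. *Alox5* (chromosome 4, 148398892 to 148446303, reverse strand) makes the leukotriene precursor and is known from leukocytes, and *Alox15b* (chromosome 10, 55774006 to 55783489, reverse strand) makes hydroperoxy acids. *Alox15b* was counted 9, 3, 2, 0 and 3 times in the Cx of the LS rats, 14, 12, 25, 24 and 21 times at HS14 and 59, 28, 12, 27 and 18 times at HS21. The 0 in LS replicate 4 allows up to 0.220 CPM (3 counts, counting error only). In CPM the LS rats ranged from 0 to 0.688, the HS14 rats from 0.873 to 1.56 and the HS21 rats from 0.829 to 3.75, so that neither HS group overlapped LS. The log2 ratio was 2.20 (SE 0.51, adjusted *P* = 0.0463) at HS14 and 2.87 (SE 0.61, adjusted *P* = 0.00321) at HS21. The HS14 call was lost when LS replicate 2, 3, 4 or 5 or HS14 replicate 6, 8, 9 or 10 was left out (adjusted *P* of 0.0576 to 0.108), without the low-count filter (adjusted *P* = 0.0600) and in the fit of all 15 libraries (adjusted *P* = 0.0609), and the HS21 call held without any one rat. HS21 replicate 11 was the highest rat, and its leukocyte sum (460 CPM) was the median of its group. Replicate 13 had the lowest *Alox15b* of the HS21 rats (0.829 CPM) and the lowest leukocyte sum (264 CPM). Replicate 15 had 1.22 CPM of *Alox15b* and the highest leukocyte sum (795 CPM). The part of leukocytes in the *Alox15b* change was not tested. *Alox5* had 1 to 15 counts in every Cx library, too few to be tested, with 0.0764 to 0.470 CPM on LS, 0.0727 to 0.743 CPM at HS14 and 0.138 to 0.612 CPM at HS21, which overlapped.

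*Ephx2* (chromosome 15, 42757235 to 42794279, reverse strand) encodes the soluble epoxide hydrolase, which turns the epoxides of arachidonic acid into less active diols. In the Cx it stood at 19.3, 13.2, 12.3, 12.7 and 11.5 CPM on LS, at 9.46, 13.5, 83.6, 7.77 and 11.2 CPM at HS14 and at 10.3, 11.02, 10.3, 9.42 and 8.63 CPM at HS21. HS14 replicate 8 was far above every other library, and all HS21 rats lay below all LS rats. The OM library with the same number was also the highest of the OM, at 29.9 CPM against 4.06 to 10.4 CPM in the other 14. At HS21 the log2 ratio was -0.48 (SE 0.14, adjusted *P* = 0.0210). That call was lost without HS21 replicate 15 (log2 ratio -0.42, adjusted *P* = 0.0510), with total counts (adjusted *P* = 0.0672) and in the fit of all 15 libraries (adjusted *P* = 0.519). Without LS replicate 1, the highest LS rat, the ratio was -0.33 and still passed. At HS14 the log2 ratio was 0.85 (SE 0.60, adjusted *P* = 0.525) with replicate 8 and -0.41 (adjusted *P* = 0.342) without it. The proximal tubule, where this enzyme is known to be expressed, had lower marker sums in the HS21 rats, as given above, and their part in the *Ephx2* change was not tested.

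In the OM the HS groups overlapped LS for every member. How many of all genes overlapped there was not counted, and edgeR called few genes of any kind in the OM, as given above. The overlap is therefore not shown to be particular to these members. *Ptgs1* stood in the OM at 41.7, 10.2, 33.2, 37.4 and 65.9 CPM on LS, at 25.9, 28.5, 57.1, 54.1 and 48.5 CPM at HS14 and at 60.0, 45.2, 33.3, 36.3 and 26.5 CPM at HS21. The lowest and the highest value of the OM were both in LS rats, replicates 2 and 5. *Ptger1* stood at 19.99 CPM in LS replicate 2 and 80.3 CPM in LS replicate 5, with all other OM libraries between 33.8 and 59.1 CPM. *Alox5* had no count in LS replicate 2, which allows up to 0.256 CPM, and 8.80 CPM in LS replicate 5. *Hpgd* ran the other way, with 51.6 CPM in LS replicate 2 and 15.03 CPM in LS replicate 5. These are the libraries with the most and the fewest proximal tubule marker counts. The part of tissue composition in these values was not tested.

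**Figure D4:**
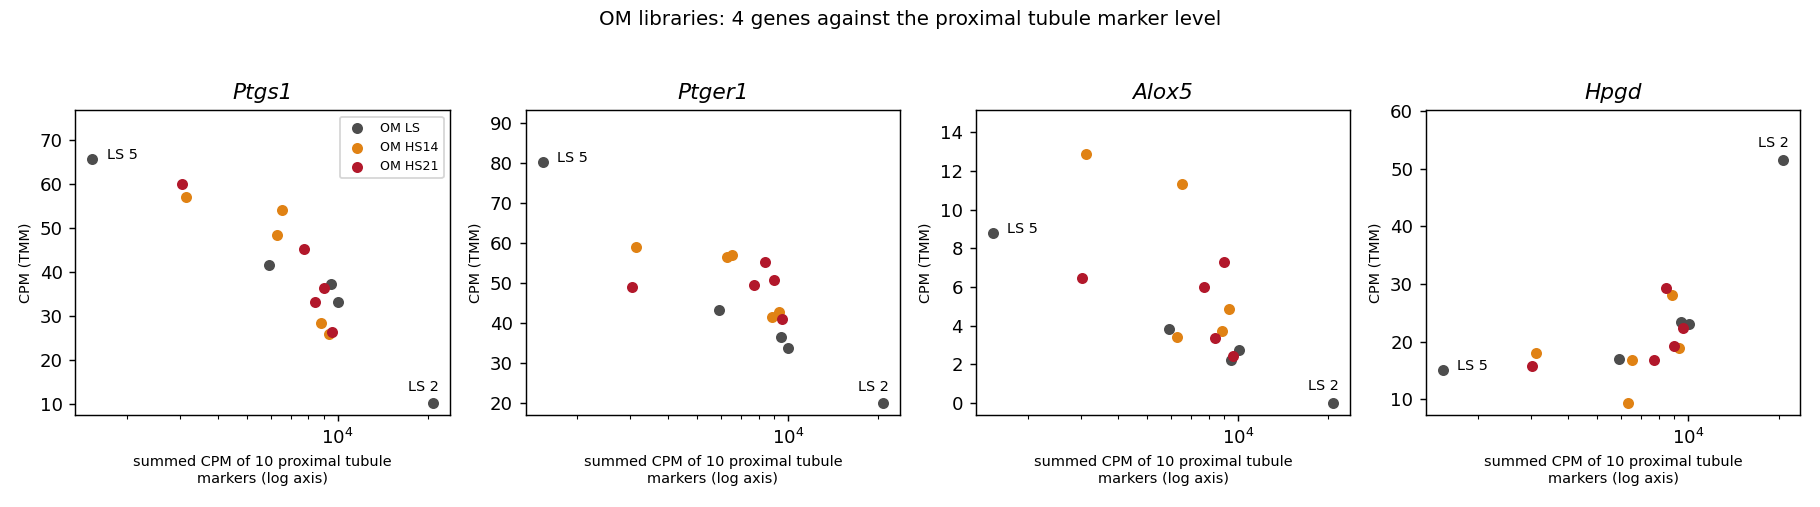
*Ptgs1*, *Ptger1*, *Alox5* and *Hpgd* (y axes, CPM) in the 15 OM libraries against the summed CPM of 10 proximal tubule markers (x axis, log scale), coloured by diet. LS replicate 5, at 1531.01 CPM of markers, has the highest *Ptgs1* (65.9 CPM), and LS replicate 2, at 20772.5 CPM, has the lowest *Ptgs1* (10.2 CPM) and the highest *Hpgd* (51.6 CPM).

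The OM intervals were wide. At HS21 the log2 ratio of *Ptgs1* was 0.10 (95% interval -0.68 to 0.88), that of *Ptgs2* -0.92 (-2.08 to 0.24) and that of *Ptger4* 0.53 (-0.09 to 1.15). Leaving out OM LS replicates 2 and 5 together, an alternative added after seeing the data, left 0 members called at both times. With those libraries left out *Ptger4* stood at 0.75 (adjusted *P* = 0.262) and *Ptger1* at 0.36 (adjusted *P* = 0.184) at HS21. An interaction term in the 20 libraries of LS and HS21 set the OM change at HS21 against that of the Cx and called 0 of 10 members, against 0.448% of 15194 genes with the OM change above the Cx change and 0.217% with it below. These are 68 and 33 genes, and without OM LS replicate 2 they were 729 and 546, with 0 members called. *Alox15b* came nearest, with an OM change below the Cx change (log2 ratio -2.18, SE 0.90, unadjusted *P* = 0.0256, adjusted *P* = 0.254). It was the 1 member with an unadjusted *P* under 0.05. The fall of *Ptgs2* and the rises of *Ptgs1* and the receptors in the Cx were not shown to differ from the OM changes.

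On LS alone, the OM and the Cx differed in 5 of 8 tested members, where 21.3% and 19.5% of 14295 genes were higher and lower in the OM. *Ptgs1* was 5.33-fold higher in the OM (log2 ratio 2.41, SE 0.39, adjusted *P* = 0.000753), with 10.2 to 65.9 CPM against 5.197 to 8.17 CPM and no overlap. The ends of that OM range were replicates 2 and 5, with the lowest and highest sums of *Slc14a2* and *Aqp4*. Without both of them the log2 ratio was 2.40, and the part of tissue composition in it was not tested. *Ptger1* was also higher (log2 ratio 0.90, SE 0.30, adjusted *P* = 0.0327), but OM LS replicate 2 fell below every Cx rat, and without that library the ratio was 1.06 (adjusted *P* = 0.00329). The *Ptger1* call was lost when any one of the 5 Cx LS rats or OM LS replicate 1 was left out (adjusted *P* of 0.0513 to 0.0753) and by limma (log2 ratio 0.70, adjusted *P* = 0.0756). *Ptgds* was the most different in the other direction, at 18.3 ± 4.12 CPM in the OM and 96.2 ± 28.3 CPM in the Cx (log2 ratio -2.40, SE 0.23, adjusted *P* = 3.43e-05). *Ephx2* was lower in the OM too (6.82 ± 1.93 against 13.8 ± 3.15 CPM, log2 ratio -1.02, adjusted *P* = 0.00450). *Ptger4* was lower (log2 ratio -0.86, adjusted *P* = 0.0484), and that call was lost when any one rat other than OM LS replicate 5 was left out (adjusted *P* of 0.0512 to 0.106), with total counts (log2 ratio -0.59, adjusted *P* = 0.164) and without the low-count filter (adjusted *P* = 0.0591). *Ptges* was not called (log2 ratio -0.61, adjusted *P* = 0.116) until OM LS replicate 5 was left out (log2 ratio -0.97, adjusted *P* = 0.00164), and *Ptgs2* and *Hpgd* were not called. *Alox5* was too low in the Cx to be tested under the count filter, at 0.0764 to 0.470 CPM there and 0 to 8.80 CPM in the OM, where 4 of 5 rats were above all Cx rats. *Alox15b* did not pass that filter either. It stood at 0 to 0.688 CPM in the Cx and 0.382 to 2.91 CPM in the OM, where 3 of 5 rats were above all Cx rats.

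Between HS14 and HS21 in the Cx, 2 of 9 members were raised, *Ptgs1* and *Ptger1* as given above, and 0 lowered, against 6.5% and 9.69% of 14395 genes. Here 40.1% of all calls were raised, and 76.4% with total counts, as against 52.2% and 75.1% for the OM against the Cx and 67.3% and 51.4% for the interaction. *Ptgs2* and *Alox15b* did not differ detectably between the times (log2 ratios 0.36, 95% interval -0.20 to 0.91, and 0.67, interval -0.06 to 1.39). The comparisons of HS14 and HS21 with LS share the same LS rats, so their values stand side by side and are not independent of each other.

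Of 87 other genes of these pathways, listed by role, 77 were in the table. In the Cx at HS14, 0 of 42 tested were raised and 4 lowered, where 1.14% and 1.18% of all genes were. At HS21, 8 of 43 were raised and 10 lowered, near the background shares of 18.9% and 20.5%. Among the phospholipases A2, which release arachidonic acid, 3 of 7 were raised at HS21, including the secreted enzymes *Pla2g2d* (0.303 CPM on LS and 2.27 CPM at HS21, log2 ratio 2.90, SE 0.63, adjusted *P* = 0.00378) and *Pla2g2a* (log2 ratio 1.41, adjusted *P* = 0.0431). Of 6 other prostanoid synthases, *Tbxas1*, the thromboxane synthase, was raised (4.59 to 11.2 CPM, log2 ratio 1.28, adjusted *P* = 0.00509), and *Ptges2* and *Fam213b*, which have roles in prostaglandin E and F synthesis, were lowered by small amounts (log2 ratios -0.17 and -0.31). Among 4 other receptors, those of prostacyclin, *Ptgir* (log2 ratio 0.93, adjusted *P* = 0.00299), and of prostaglandin F, *Ptgfr* (0.73, adjusted *P* = 0.0401), were raised. All 4 genes of prostaglandin transport and reduction were tested and 3 were lowered, among them the exporter *Abcc4* (log2 ratio -0.59, adjusted *P* = 0.000487) and the reductase *Ptgr1* (-0.57, adjusted *P* = 0.000205).

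In the lipoxygenase and leukotriene list, 2 of 9 tested genes were raised and 1 lowered in the Cx at HS21, where 18.9% and 20.5% of all genes were. *Alox5ap*, which presents arachidonic acid to the *Alox5* product, went from 3.01 to 7.31 CPM (log2 ratio 1.27, SE 0.21, adjusted *P* = 0.000816), and *Alox12* was raised too (log2 ratio 0.82, adjusted *P* = 0.00861). *Mgst3*, a microsomal glutathione transferase, was lowered (log2 ratio -0.81, adjusted *P* = 0.000794). In the Cx at HS21, 1 of 5 tested cytochrome P450 epoxygenases and 2 of 6 omega-hydroxylases were lowered and 0 raised, near those background shares. At HS14, 0 and 2 were lowered and 0 raised, where 1.18% and 1.14% of all genes were. The median log2 ratio at HS21 was 0.26 for the epoxygenases and -0.23 for the omega-hydroxylases. For HS21 against HS14, 1 epoxygenase was raised and 1 lowered. The cytochrome P450 genes called against LS were thus all lowered. *Cyp4a2*, an omega-hydroxylase and the most abundant of them, fell from 4790.9 to 2720.86 CPM at HS14 (log2 ratio -0.82, adjusted *P* = 0.0111) and 2232.51 CPM at HS21 (log2 ratio -1.10, SE 0.11, adjusted *P* = 4.61e-05). *Cyp4a1* was lowered at both times (log2 ratios -0.63 and -0.94), and *Cyp2c23*, the main epoxygenase of the rat kidney, at HS21 (log2 ratio -0.50, adjusted *P* = 0.000329). *Ephx1*, the microsomal epoxide hydrolase, was lowered at HS14 and HS21 (log2 ratios -0.52 and -0.64), and *Ptgr1* was the remaining gene lowered at HS14 (-0.38). Proximal tubule marker sums were lower and leukocyte marker sums higher at HS21, as given above, and the part of either was not tested. In the OM at HS14 0 of 43 were called (0.00694% and 0% of all genes were raised and lowered). At HS21 1 of 43, *Ptgir*, was raised and 0 lowered, against 0.639% and 0.131% of all genes (2.04 to 6.58 CPM, log2 ratio 1.68, SE 0.25, adjusted *P* = 0.0280).

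**Figure D5:**
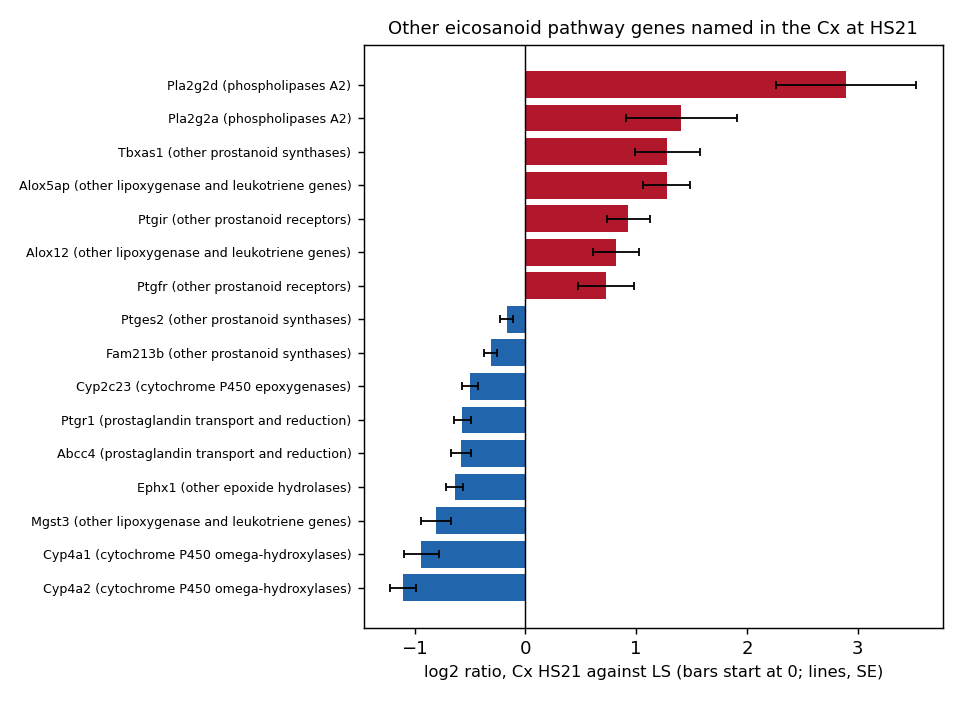
Log2 ratios of Cx HS21 against LS (x axis; bars start at 0, lines are SE, n = 5 rats per group) for the 16 pathway genes named by rule, at most 2 raised (red) and 2 lowered (blue) per list. The bars run from -1.10 for *Cyp4a2* to 2.90 for *Pla2g2d*.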

How the data were processed

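Poly(A) mRNAseq of kidney Cx and OM was deposited as read counts per gene and as FPKM values, both made by the authors, with the gene length beside them. Per the submitters' processing notes, the tools were HISAT2 2.0.5, StringTie 1.3.3b and featureCounts 1.5.0-p3, on Rnor_6.0. The library preparation was non-directional, so antisense transcripts cannot be told apart. The 35 columns of the authors' own comparisons (group means, log2 fold changes and *P* values) were not used.

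The deposited counts were tested in edgeR 4.0.16 (R 4.3.3) with filterByExpr, TMM scaling, the quasi-likelihood test and Benjamini-Hochberg adjustment over all genes tested, at a threshold of 0.05. Each HS group was set against LS within a tissue. SE is the absolute log2 ratio divided by the square root of F, and 95% intervals are 1.96 SE. The normal quantile makes these intervals narrower than the quasi-likelihood test allows, so they are approximate. For *Ephx2* in Cx HS21 against HS14 the interval was -2.53 to -0.13, while the quasi-likelihood test gave an unadjusted *P* of 0.0522. Single values were also tested by exact permutation of the rats (two-sided, smallest possible *P* 0.00794). Library totals (5408126 to 21842843 counts) limit the precision of low genes. Alternatives were DESeq2 1.42.0, median-of-ratios and total-count scaling, no low-count filter, limma 3.58.1 on log2(FPKM + 1) for genes with a mean FPKM of at least 0.1, one fit of a tissue's 15 libraries, a replicate block, and leaving out each library. All 10 members are described. From each pathway list at most 2 raised and 2 lowered genes were named, those with the largest log2 ratios among called genes whose mean reached 1 CPM. Members and lists were chosen with earlier results of these data known. No 2 libraries agreed within sampling noise (60 pairs within groups, lowest chi-square per gene 7.29). Whether rats were housed or prepared separately is not given, so *P* values measure the spread between these samples. On simulated counts with 200 genes changed by a log2 ratio of 1, the test recovered 80% at Cx HS14 (14181 genes), 80.5% at Cx HS21 (14299 genes), 16.5% at OM HS14 (14417 genes) and 48% at OM HS21 (14555 genes). Promoter sequences are from RefSeq on GRCr8.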

Additional observations from a re-analysis of the deposited data

Results flagged for a closer look

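Of the 60 sets of 5 libraries formed by the 10 genes and 6 groups, 3 held a library whose gap to its nearest neighbour exceeded Dixon's 95% critical value of 0.71 of the range of log2 CPM, where chance gives about 1 in 20. *Ptgds* was lowest in OM HS14 replicate 10, at 3.75 CPM, the library with the fewest counts and, in the paper's mapping results, the lowest exonic share. *Ephx2* was highest in Cx LS replicate 1, at 19.3 CPM. *Ephx2* was also highest in Cx HS14 replicate 8, at 83.6 CPM, and OM HS14 replicate 8 had 29.9 CPM.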

How the results depend on the processing

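Over the settings other than leaving out 1 library, 389 of 416 results kept their direction and their side of the threshold, and none of the called log2 ratios reversed. Most of these were uncalled: of called log2 ratios, 12 of 107 lost their call under those settings and 49 of 170 with 1 library left out. In the Cx at HS14, 1 member was raised without the low-count filter and 0 in the fit of all 15 libraries, and 0 were lowered by limma. At Cx HS21, 1 was lowered with total counts and in the fit of all 15 libraries. For HS21 against HS14, 1 was raised by limma, and for the OM against the Cx, 4 were raised by DESeq2 and without the low-count filter. With 1 library left out, members raised and lowered were 1 to 3 and 0 to 1 at Cx HS14, 4 to 5 and 1 to 3 at Cx HS21, 0 to 2 and 0 to 1 for HS21 against HS14, and 1 to 3 and 2 to 4 for the OM against the Cx. Log2 ratios that reversed were all uncalled. At Cx HS14 *Ptgds* was 0.0066 with total counts, 0.00075 without the filter and 0.034 by limma. For HS21 against HS14 *Ptges* was 0.10, 0.0031 and 0.034 in the same order. At OM HS14 *Ptges* was 0.065 by limma, and without OM LS replicates 2 and 5, chosen after seeing the data, *Ptges* was 0.15 and *Alox15b* 0.12. In the interaction *Ptgds* was -0.066 with total counts and *Alox5* 0.39 by limma. With 1 library left out the reversing ratios ran from -0.41 to 1.09 (*Ephx2*) and -0.16 to 0.12 (*Ptgds*) at Cx HS14, -0.14 to 0.26 (*Ptges*) for HS21 against HS14, -0.87 to 0.30 (*Alox15b*), -0.21 to 0.31 (*Ptges*) and -0.053 to 0.48 (*Ptgs1*) at OM HS14, -0.48 to 0.066 (*Hpgd*), -0.56 to 0.035 (*Ptges*) and -0.14 to 0.38 (*Ptgs1*) at OM HS21, and -0.45 to 0.63 (*Alox5*), -0.064 to 0.22 (*Ptgds*) and -0.23 to 0.24 (*Ptger4*) in the interaction. Unless the setting itself removed samples or genes, the cause was not tested.

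Per the paper, the collected kidneys of each group were dissected into Cx and OM, so both tissues came from the same rats. The main fits across tissues carried no term for the rat. Replicate numbers recur in both tissues, but the labels do not say that equal numbers mark the same rat. Same-number libraries correlated over 0.1 in 10 of 15 pairs (-0.07 to 0.44), and 13 of 15 correlated best with their own number, a hint from the data only. With a replicate block, the OM against the Cx gave 2 raised and 3 lowered members as before (*Ptgs1* 2.24, *Ptger1* 0.77, *Ptger4* -0.98), and in the interaction *Ptger4* was 0.024 and *Alox5* 0.26, uncalled. Over all genes DESeq2 raised and lowered 500 and 414 at Cx HS14 (162 and 168 in edgeR, 87 and 96 by limma), 90 and 20 at OM HS14 (1 and 0), 555 and 166 at OM HS21 (93 and 19), and 337 and 201 in the interaction (68 and 33). With 1 library left out, the genes raised and lowered ran from 42 to 274 and 43 to 232 at Cx HS14, 337 to 1476 and 692 to 2048 for HS21 against HS14, 9 to 159 and 0 to 31 at OM HS21, and 34 to 729 and 4 to 546 in the interaction.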
